A study of Rattus norvegicus with 4 samples.

Results

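The mitochondrial carriers, the protein import machinery and the outer membrane channels were taken by symbol alone: every Slc25a, Timm and Tomm gene with a number, Mtch1 and Mtch2, Mtx1 to Mtx3, Samm50 and Vdac1 to Vdac3. The rule found 72 genes with 102 probe sets, of 14218 genes with a single symbol and 31099 probe sets in the table, and 24 of the 72 had more than 1 probe set. They comprised 40 carriers, 14 TIM genes, 9 TOM genes, 4 SAM genes, 2 MTCH genes and 3 VDAC genes. Each gene was read at the probe set with the highest mean intensity over all arrays, with its other tested probe sets given beside it. At that probe set 63 genes were bright enough to be tested and 9 were not. A further 3 probe sets had more than 1 annotation entry and were left out of the set: 1 listed Timm23 with relatives of it, and 2 listed Slc25a51 under a pair of gene identifiers.

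Mitochondria make only a handful of their own proteins, so nearly all of the rest are made in the cytosol and imported. Precursors pass the outer membrane through the TOM complex and are then sorted by the TIM23 complex (presequence proteins), the TIM22 complex (carriers), small TIM chaperones of the intermembrane space, or the sorting and assembly machinery (SAM) that inserts beta-barrels such as the VDAC channels. The SLC25 carriers, themselves imported this way, move nucleotides, phosphate, acids and cofactors across the inner membrane, and the ovary depends on both systems for oocyte energy supply and for steroid synthesis.

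The tissue was whole ovary from postnatal day 4 rats (Rattus norvegicus; no strain is given), taken when most follicles are primordial and cultured for 10 days. The AMH group had 50 ng/mL anti-Müllerian hormone (AMH), a TGF-beta family hormone that restrains the growth of primordial follicles, and the control group had none. Both were kept on floating filters in the same medium with insulin, transferrin, ascorbic acid, albumin and antibiotics. About 10 ovaries were pooled per RNA sample, and 2 samples that the labels call independent were hybridised per group, each to 1 Affymetrix array. Each change is the AMH mean less the control mean of log2(intensity + 16), given ± its standard error from a limma fit to all 18625 tested probe sets, and "called" means an adjusted p under 0.05 in that fit. The small number of arrays limits the precision of every value. A fit with 1 control array left out takes its spread from the AMH pair alone. That pair lay further apart (SD of the log2 difference 0.435, against 0.318 between control arrays). A call lost in such a fit therefore need not mean that the change itself moved.

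The 2 groups differed in more than the hormone. The GAPDH 3′/5′ ratio, a measure of how far labelled RNA reaches towards its 5′ end that is higher for shorter RNA, stood at 6.56 and 6.37 on the AMH arrays and 1.17 and 1.27 on the control arrays. The chip identifiers carry 1 run string in each group and none shared by both, so that run and hormone cannot be told apart in any result below. Ovarian identity was clear on every array: the zona pellucida gene Zp3 read 2721.8 and 1977.8 with AMH and 2531.1 and 2133.5 in control. Of 11 tested oocyte markers 8 were lower with AMH and 0 higher, and their summed intensity was 7848.2 to 8196.4 on the AMH arrays and 12051.6 to 13050.0 on the control arrays. Red blood cell markers summed to 111.3 to 122.5 with AMH and 1253.2 to 1448.2 in control, with Hbb as the 1 called gene among 2 tested. Granulosa markers summed to 5840.4 to 8200.6 with AMH and 3878.4 to 4464.5 in control, with 4 of 13 higher and 1 lower. No marker of these lists was at 0. In whole ovaries fewer cells of a type and less RNA per cell cannot be told apart, and the part of these differences in the results below was not tested.

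Among the 63 tested genes 4 were called higher and 13 lower, which is 6.35% and 20.6%. Over all 10621 tested genes 11.1% were called higher and 11.9% lower (8.67% and 12.8% of all tested probe sets). The median change was -0.126 over the 63 genes and 0.072 over all tested genes. On both AMH arrays 17 of the genes read above both control arrays, against 36% of all tested genes, and 27 read below both, against 28.6% of all tested genes. In 19 genes the groups overlapped. Most changes were modest: 5 genes fell and 1 rose by at least 2-fold.

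The counts of the set moved with the scaling of the arrays, while lower calls outnumbered higher ones under each scaling run. Scaling to the hybridization controls, labelled transcripts added to each hybridisation, moved the median change of all tested genes to -0.352. It gave 0 of the 63 genes higher and 24 lower, with 0.885% of all tested genes higher and 24.4% lower. Median centring moved that median change to 0.169. It gave 6 of the 63 genes higher and 9 lower, with 13.4% of all tested genes higher and 9.04% lower. Lower calls made up 59.6% of all called probe sets on the deposited scale, 97.1% with hybridization control scaling and 47.9% with median centring. The median of the 63 genes less that of all tested genes was -0.198 as deposited, a difference that a shift of whole arrays leaves nearly as it is. It was -0.136 with 64 added in place of 16 and -0.089 with the mean over the probe sets of a gene.

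**Figure D1:**
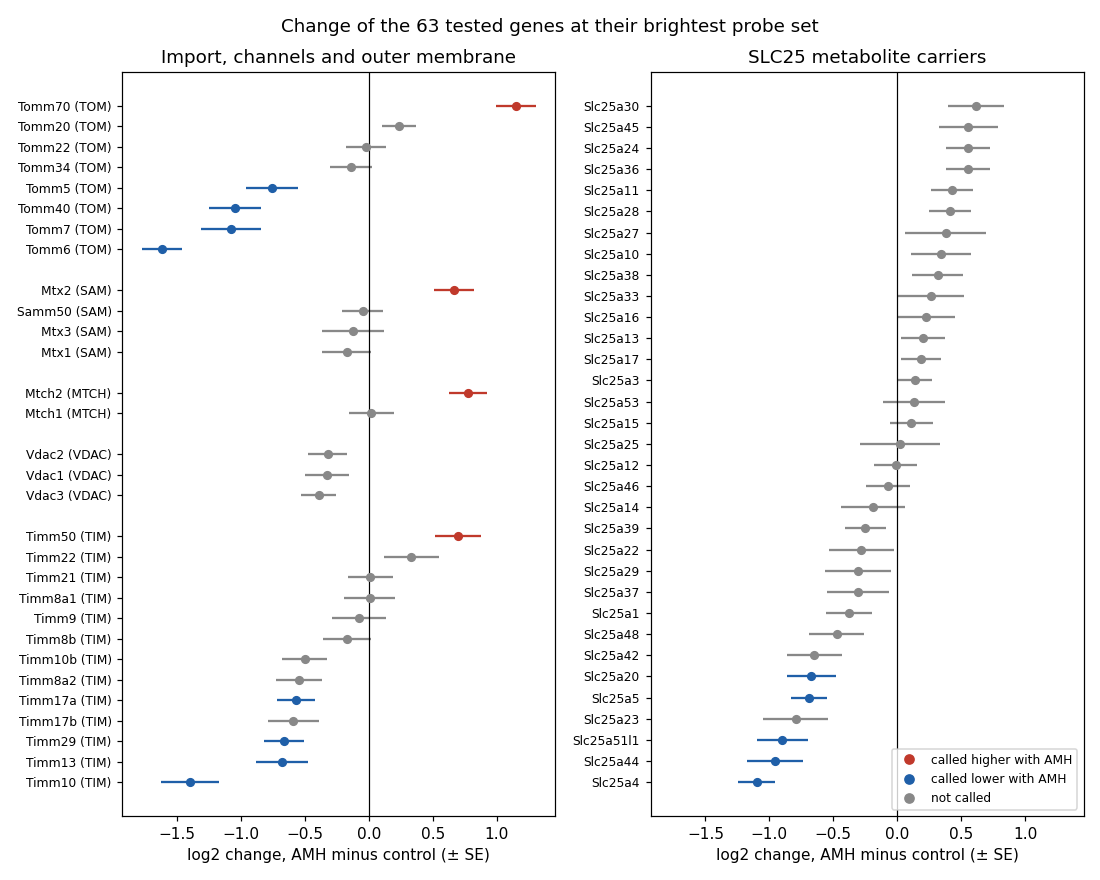
Log2 change (AMH minus control, ± SE of the limma fit, 2 arrays per group) of the 63 tested genes at their brightest probe set, with import and channel genes on the left and SLC25 carriers on the right, in order of change within each kind. Tomm70 lies at 1.15 and Tomm6 at -1.62, and no carrier lies above 0.61.

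The changes of the TOM genes ran between -1.62 for the small subunit Tomm6 and 1.15 for the receptor Tomm70. The promoters of Tomm5, Tomm6, Tomm7 and Tomm70 are printed here because subunits of 1 complex were called in opposite directions. Those of Mtch2 and Mtx2 are printed because these outer membrane genes were called higher as well. Promoters of other called genes, such as Tomm40, Timm50, Timm10 and Slc25a20, are not printed, so the choice does not show how motifs go with direction. Each printed promoter is the RefSeq window of 300 bases on the GRCr8 assembly, 5′ to 3′ on the gene's strand. It runs from 250 bases before the gene's start to 50 after it. Capitals mark 4 short motifs searched on both strands: GCATGCGC (NRF1), CCGGAAGT (ETS factors such as GABP), GGGCGG (Sp1) and AAGATGGC (YY1). Tomm5 lies at chr5:64160808-64161107 on the minus strand, Tomm6 at chr9:20801556-20801855 (plus), Tomm7 at chr4:12197253-12197552 (plus) and Tomm70 at chr11:56886227-56886526 (minus). Mtch2 lies at chr3:97286138-97286437 (plus) and Mtx2 at chr3:80137347-80137646 (plus).
Tomm5: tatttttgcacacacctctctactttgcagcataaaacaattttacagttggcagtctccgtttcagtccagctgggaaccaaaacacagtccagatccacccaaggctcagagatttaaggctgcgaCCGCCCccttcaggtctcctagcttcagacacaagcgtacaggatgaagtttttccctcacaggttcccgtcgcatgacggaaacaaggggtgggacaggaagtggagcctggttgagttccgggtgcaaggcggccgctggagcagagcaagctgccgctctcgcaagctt
Tomm6: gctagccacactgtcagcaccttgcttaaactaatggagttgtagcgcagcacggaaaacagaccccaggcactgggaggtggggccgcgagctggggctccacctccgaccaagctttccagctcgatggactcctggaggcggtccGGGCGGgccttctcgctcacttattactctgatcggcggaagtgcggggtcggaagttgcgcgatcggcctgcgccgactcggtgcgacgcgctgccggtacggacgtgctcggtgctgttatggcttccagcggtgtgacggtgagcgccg
Tomm7: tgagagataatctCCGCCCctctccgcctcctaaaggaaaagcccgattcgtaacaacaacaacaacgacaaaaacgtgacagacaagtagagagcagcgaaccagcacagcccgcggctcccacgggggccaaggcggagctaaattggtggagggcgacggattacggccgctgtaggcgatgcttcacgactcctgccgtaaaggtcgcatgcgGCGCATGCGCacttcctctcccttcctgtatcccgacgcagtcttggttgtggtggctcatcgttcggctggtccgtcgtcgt
Tomm70: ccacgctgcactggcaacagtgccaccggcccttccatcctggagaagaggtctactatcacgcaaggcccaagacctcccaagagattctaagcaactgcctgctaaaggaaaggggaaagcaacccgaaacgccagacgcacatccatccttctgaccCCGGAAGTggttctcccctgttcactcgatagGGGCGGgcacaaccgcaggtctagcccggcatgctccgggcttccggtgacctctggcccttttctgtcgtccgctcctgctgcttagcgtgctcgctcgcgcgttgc
Mtch2: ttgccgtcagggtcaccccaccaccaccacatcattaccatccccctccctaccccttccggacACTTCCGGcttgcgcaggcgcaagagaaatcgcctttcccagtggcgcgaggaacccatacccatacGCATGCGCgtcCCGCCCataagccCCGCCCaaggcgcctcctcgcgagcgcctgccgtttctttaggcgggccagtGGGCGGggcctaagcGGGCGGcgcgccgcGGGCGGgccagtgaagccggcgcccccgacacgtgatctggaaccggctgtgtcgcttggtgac
Mtx2: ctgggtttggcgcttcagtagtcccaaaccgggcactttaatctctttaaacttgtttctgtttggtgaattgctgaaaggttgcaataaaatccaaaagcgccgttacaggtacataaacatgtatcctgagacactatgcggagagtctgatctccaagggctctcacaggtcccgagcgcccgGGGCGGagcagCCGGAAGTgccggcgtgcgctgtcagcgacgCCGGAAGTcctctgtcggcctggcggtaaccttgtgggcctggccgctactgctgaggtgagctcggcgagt

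NRF1 and the ETS factor GABP are known activators of nuclear genes for mitochondrial proteins. Of the 72 genes, 63 had a promoter in the RefSeq table. The ETS letters stood in 11 of the 63 promoters (17.5%), against 4.99% of all 18999 protein-coding promoters and 6.82% of the 11701 promoters of genes with a named probe set. They were in 3 of the 4 genes called higher (Tomm70, Mtch2 and Mtx2) and not in Timm50. They were also in 2 of the 11 genes called lower that had a promoter (Timm10 and Slc25a20) and in 6 of 40 not called. These counts are small, and the shares among all genes called higher or lower were not taken. Only exact matches were counted, and the Tomm5 and Tomm6 promoters printed above hold close variants that are not marked. The NRF1 letters stood in 4 promoters (6.35%, against 3.22% and 4.29%), Tomm7 and Mtch2 among them. In Tomm7 they begin at position -31 from the start and overlap their own reverse complement at -33. The Sp1 letters were in 44 promoters (69.8%, against 43.1% and 57.5%) and the YY1 letters in 3 (4.76%, against 3.92% and 4.72%). The median GC content was 58.7% in these promoters and 55.3% in all protein-coding ones, and GC-rich motifs are met more often in GC-rich sequence. A match describes these letters only.

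All 3 small TOM subunits were called lower, against 11.9% of all tested genes. Tomm6, which helps hold the TOM complex together, read 216.5 and 228.7 on the AMH arrays and 750.8 and 684.2 on the control arrays. Both AMH arrays lay far below both control arrays and close to each other, and the fall was 1.62 on the log2 scale (± 0.16, 3.07-fold, limma adjusted p = 0.000683). Tomm7, another small subunit, read 409.5 and 705.3 with AMH and 1162.7 and 1147.3 in control. Its AMH arrays lay apart but both below control (-1.08 ± 0.23, adjusted p = 0.0151), and the change was -0.70 when AMH replicate 1 was left out and -1.46 when AMH replicate 2 was. Tomm5 read 381.8 and 582.9 with AMH and 837.4 and 783.1 in control (-0.76 ± 0.21, adjusted p = 0.0336). The call of Tomm5 ended without control replicate 1 (0.15) or control replicate 2 (0.0855), its change was -0.46 with AMH replicate 1 left out and -1.05 with AMH replicate 2 left out, and it was also lost with median centring (0.0876) and with no filter on dim probe sets (0.0625).

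Tomm40, the channel of the complex, fell as well. It read 80.6 and 61.1 with AMH and 165.1 and 160.0 in control, with no overlap (-1.05 ± 0.21, adjusted p = 0.0106), and the call was lost without control replicate 1 (0.07). Its paralogue Tomm40l was too dim to test, with 19.2 and 21.0 with AMH and 8.1 and 22.0 in control.

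Of the receptors that first bind precursors, Tomm70 rose and Tomm20 and Tomm22 were not called. Tomm70, the receptor for carrier precursors, rose to 722.0 and 814.4 with AMH, against 327.5 and 347.5 in control (1.15 ± 0.15, 2.22-fold, adjusted p = 0.00241), the largest rise among the 63 genes. Its other probe set read 380.7 and 473.6 with AMH and 310.1 and 348.0 in control, in the same direction but smaller and not called (0.36 ± 0.17, adjusted p = 0.18). With hybridization control scaling the change at the brightest probe set was 0.68 with an adjusted p of 0.054. Tomm20, the receptor for presequences, had 2 bright probe sets that disagreed in sign. The brighter read 2207.9 and 2129.0 with AMH and 1786.8 and 1896.3 in control (0.23 ± 0.13), and the other 681.5 and 665.9 with AMH and 899.3 and 884.2 in control (-0.40 ± 0.14), neither of them called. Tomm22, the central receptor, read 727.3 and 774.0 with AMH and 834.2 and 698.6 in control, so that the groups overlapped, and the 95% interval of its change ran from -0.38 to 0.33. Tomm34, a cytosolic import factor, gave -0.14 ± 0.16.

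**Figure D2:**
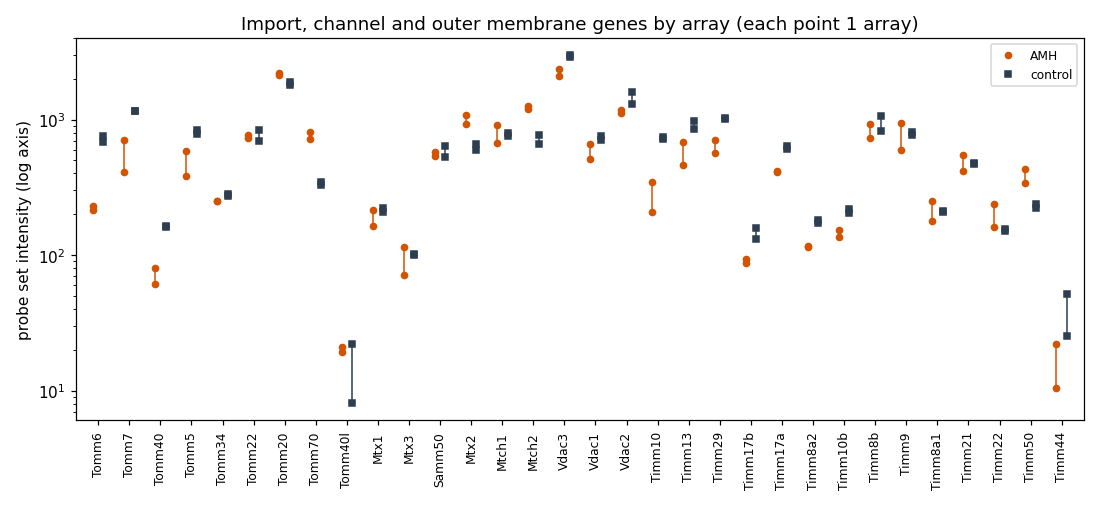
Probe set intensity (log axis) of the import, channel and outer membrane genes on each array, AMH as circles to the left and control as squares to the right of each gene, with a line joining the 2 arrays of a group. Tomm6 reads 216.5 and 228.7 with AMH against 750.8 and 684.2 in control, Tomm70 lies the other way round, and the AMH arrays of Tomm7, Timm10 and Timm9 lie further apart than their control arrays.

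Of the other outer membrane genes, 2 rose, Mtch2 and Mtx2. Mtch2, a carrier-like protein known in human cells as an insertase for outer membrane helices, read 1251.7 and 1202.9 with AMH and 657.4 and 771.5 in control (0.77 ± 0.15, adjusted p = 0.0101). Its second probe set rose by a similar amount, with 206.0 and 176.0 with AMH and 86.8 and 100.2 in control (0.92 ± 0.19, adjusted p = 0.0138). Mtch2 is the 1 gene of 16 with several tested probe sets in which more than 1 was called and all were called alike. Both probe sets lost the call without control replicate 1 (0.127 and 0.111). Its paralogue Mtch1 read 668.2 and 913.9 with AMH and 790.5 and 753.2 in control and was not called (0.02 ± 0.18).

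Mtx2, a metaxin of the SAM complex, rose to 934.2 and 1073.1 with AMH, against 659.7 and 594.2 in control (0.66 ± 0.15, adjusted p = 0.019). That call ended without control replicate 1 (0.0951) or control replicate 2 (0.165). Samm50, the beta-barrel core of SAM, read 541.4 and 579.5 with AMH and 636.3 and 530.2 in control, with overlapping groups (-0.05 ± 0.16). Mtx1 read 164.7 and 214.8 with AMH and 206.5 and 222.4 in control at its brighter probe set (-0.17 ± 0.19) and gave 0.55 ± 0.26 at the other, and Mtx3 gave -0.13 ± 0.24, none of them called. With hybridization control scaling the calls of Mtch2 (0.343) and Mtx2 (0.605) were lost.

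The VDAC channels, the main pores of the outer membrane for metabolites, read lower on both AMH arrays than on both control arrays in all 3 genes. The same order was met in 28.6% of all tested genes. None of the 3 was called at its brightest probe set. Vdac3 read 2376.9 and 2087.0 with AMH and 2889.3 and 2980.9 in control (-0.40 ± 0.14, adjusted p = 0.0761). Vdac2 read 1117.5 and 1176.0 with AMH and 1306.5 and 1583.9 in control (-0.32 ± 0.15, adjusted p = 0.164). Vdac1 read 509.6 and 664.3 with AMH and 709.5 and 761.3 in control (-0.33 ± 0.17, adjusted p = 0.205). The second probe set of Vdac1 was called, with 44.6 and 39.8 with AMH and 178.7 and 148.3 in control (-1.62 ± 0.21, adjusted p = 0.00207), and it kept the call without any single array. The 2 probe sets of Vdac1 thus differed by 1.292 in log2 change, the widest gap of the 16 genes that had several tested probe sets. With the mean over the probe sets of a gene, Vdac1 was called lower (0.0106). All 3 genes passed at their brightest probe set with hybridization control scaling (0.0409 for Vdac1, 0.025 for Vdac2 and 0.0131 for Vdac3). That scaling moved the median change of all tested genes to -0.352 and called 24.4% of them lower. Single arrays also decided the side of the threshold, Vdac1 being called with AMH replicate 2 left out (0.0265) and Vdac3 with AMH replicate 1 left out (0.0124).

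Of the small TIM chaperones of the intermembrane space, Timm10 and Timm13 fell. Timm10 carries carrier precursors in a hexamer with Timm9. Timm10 fell to 207.8 and 345.7 with AMH, against 721.5 and 747.0 in control (-1.40 ± 0.23, 2.64-fold, adjusted p = 0.00523). The fall was called under all 15 alternatives, at -1.05 if AMH replicate 1 was left out and -1.75 if AMH replicate 2 was. Timm9 read 599.8 and 941.3 with AMH and 815.7 and 771.0 in control, with overlapping groups (-0.08 ± 0.21, 95% interval -0.56 to 0.41). The interval of Timm10 (-1.92 to -0.88) does not meet that of Timm9, though the difference itself was not tested. Timm10b, which docks the hexamer on TIM22, read 135.3 and 153.7 with AMH and 205.8 and 216.9 in control and was not called (-0.50 ± 0.18, adjusted p = 0.0783). Its second probe set gave -0.31 ± 0.28.

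Timm13, the partner of Timm8 proteins, fell to 459.3 and 686.0 with AMH, against 980.1 and 846.0 in control (-0.68 ± 0.20, adjusted p = 0.047). It lay near the threshold and was lost in 8 of 15 alternatives, among them leaving out control replicate 1 (0.242), control replicate 2 (0.0879) or AMH replicate 1 (0.0725, with -0.401 left). Timm8a1, whose human counterpart is mutated in deafness-dystonia syndrome, read 178.3 and 249.8 with AMH and 212.7 and 208.0 in control (0.01 ± 0.20). Its second probe set gave -0.13 ± 0.26. Timm8b gave -0.17 ± 0.19 and Timm8a2 -0.55 ± 0.18 (adjusted p = 0.0632), neither called. In all, 2 of 7 small TIM chaperones fell (28.6%, against 11.9% of all tested genes) and 0 rose, with a median of -0.504.

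The inner membrane translocases also moved in both directions. Timm17a, a core subunit of TIM23, read 408.1 and 415.0 with AMH and 601.0 and 640.4 in control (-0.57 ± 0.15, adjusted p = 0.0292), and its paralogue Timm17b gave -0.59 ± 0.20 without passing (adjusted p = 0.0654). Timm50, the TIM23 receptor that takes presequences over from TOM, rose to 339.3 and 430.3 with AMH, against 237.7 and 223.1 in control (0.69 ± 0.18, adjusted p = 0.0285). Both calls ended without control replicate 1 (0.176 for Timm17a and 0.129 for Timm50) or control replicate 2 (0.231 and 0.162), that of Timm17a also with median centring (0.0709) and that of Timm50 with hybridization control scaling (0.534). Timm21, which links TIM23 to TOM, gave 0.01 ± 0.18. Timm44, the anchor of the import motor, was too dim to test, with 22.1 and 10.4 with AMH and 52.0 and 25.4 in control.

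Timm29, a TIM22 subunit of animals, read 706.1 and 570.6 with AMH and 1009.7 and 1021.0 in control (-0.66 ± 0.16, adjusted p = 0.0218). A second, dim probe set gave -0.21 ± 0.29, and the call was lost in the mean of both (0.188) and without control replicate 1 (0.137) or control replicate 2 (0.13). Timm22, the channel of that complex, read 160.6 and 238.7 with AMH and 154.8 and 150.9 in control (0.33 ± 0.22, not called). Its other probe set, almost as bright, was called higher, with 183.2 and 205.8 with AMH and 95.3 and 102.4 in control (0.87 ± 0.19, adjusted p = 0.0142, lost without control replicate 1 at 0.109 and without control replicate 2 at 0.063). Of the 13 tested TIM genes 1 rose and 4 fell (7.69% and 30.8%), with a median of -0.504. Of the 8 tested TOM genes 1 rose and 4 fell (12.5% and 50%), with a median of -0.450. Over all tested genes 11.1% were called higher and 11.9% lower.

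Of 33 tested SLC25 carriers 0 rose, 5 fell (15.2%, against 11.9% of all tested genes) and 28 were not called, with 17 changes above 0 and a median of 0.024. On both AMH arrays 11 read above both control arrays (33.3%, against 36% of all tested genes) and 12 below (36.4%, against 28.6%). Outside these 33, the brighter of the probe sets that list Slc25a51 under a pair of identifiers was called higher, with 853.6 and 745.1 with AMH and 475.6 and 545.8 in control (0.63 ± 0.16, adjusted p = 0.026). That call was lost without control replicate 1 (0.24), without control replicate 2 (0.0885) and with hybridization control scaling (0.62), and the dimmer one was not called (0.42 ± 0.16, adjusted p = 0.0996). Other carriers came close on the higher side, and with median centring, the stricter filter or single arrays left out some of them were called, Slc25a36 in 5 of 15 alternatives and Slc25a24 in 3.

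The adenine nucleotide carriers, which exchange matrix ATP for cytosolic ADP, were called lower in both tested genes, against 11.9% of all tested genes. Slc25a4 (ANT1) read 745.4 and 850.5 with AMH and 1726.4 and 1722.5 in control (-1.10 ± 0.14, 2.14-fold, adjusted p = 0.00214), a fall called under all 15 alternatives. Slc25a5 (ANT2) read 1185.5 and 1061.4 with AMH and 1813.8 and 1833.5 in control (-0.69 ± 0.14, adjusted p = 0.0115). Its call ended without control replicate 1 or control replicate 2, while its change stayed at -0.701 and -0.685. Slc25a31 (ANT4), known from germ cells, was too dim to test, with 2.7 and 15.3 with AMH and 30.3 and 38.5 in control. On the same arrays 8 of 11 tested oocyte markers were lower, while Zp1, Zp2 and Zp3 were not called. The part of the oocytes in the value of Slc25a31 was not tested. Slc25a3, which brings in the phosphate for ATP synthesis, was not called, with 2511.0 and 2359.6 with AMH and 2245.5 and 2182.8 in control (0.14 ± 0.13, 95% interval -0.17 to 0.44). The interval of Slc25a4 (-1.43 to -0.77) lies wholly below it, though the difference was not tested.

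**Figure D3:**
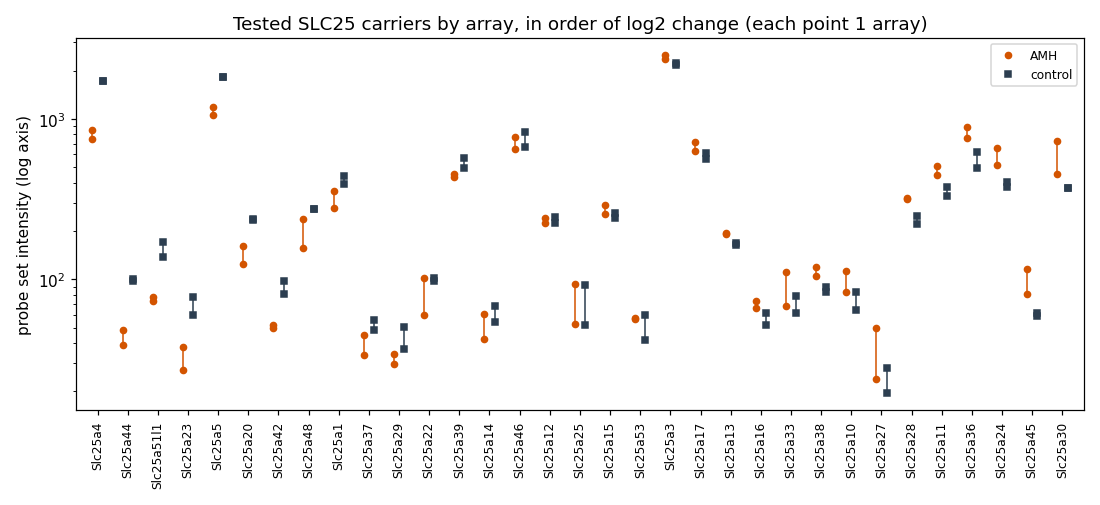
Probe set intensity (log axis) of the 33 tested SLC25 carriers on each array, AMH as circles to the left and control as squares to the right of each gene, ordered by log2 change with the lowest at the left. Slc25a4 and Slc25a5 read lower on both AMH arrays, Slc25a3 slightly higher, and the carriers at the right end (Slc25a30, Slc25a45, Slc25a24) have AMH arrays that lie apart from each other.

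Of the other carriers 3 fell. Slc25a44, a transporter of branched-chain amino acids in brown fat of mice, read 48.3 and 38.8 with AMH and 98.1 and 100.6 in control (-0.96 ± 0.22, adjusted p = 0.0184), and its second probe set gave -0.54 ± 0.25 without passing. Slc25a51l1 read 77.1 and 73.0 with AMH and 170.5 and 138.4 in control (-0.90 ± 0.20, adjusted p = 0.0174). Slc25a20, which imports acylcarnitines for fatty acid oxidation, read 162.2 and 123.8 with AMH and 234.8 and 236.9 in control (-0.67 ± 0.19, adjusted p = 0.0396). Without control replicate 1 all of these were lost (0.113, 0.176 and 0.2), and without control replicate 2 Slc25a44 (0.109) and Slc25a20 (0.185). Slc25a20 also failed without AMH replicate 2 (0.07), with no filter (0.064) and with median centring (0.0591).

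The carriers of citrate, oxoglutarate, dicarboxylates, aspartate and glutamate were not called. Slc25a1, the citrate carrier, read 357.4 and 278.7 with AMH and 438.6 and 392.7 in control (-0.38 ± 0.18, adjusted p = 0.166). Slc25a11, the oxoglutarate carrier, read 511.9 and 449.7 with AMH and 377.5 and 330.5 in control (0.43 ± 0.16, adjusted p = 0.0994). In both genes the groups did not overlap. The aspartate-glutamate carriers Slc25a12 (-0.01 ± 0.17) and Slc25a13 (0.20 ± 0.17), the dicarboxylate carrier Slc25a10 (0.34 ± 0.23) and the glutamate carrier Slc25a22 (-0.28 ± 0.25) all had intervals that include 0. The second probe set of Slc25a13 gave -0.35 ± 0.23 and was not called. Its AMH arrays lay below both control arrays, while those of the brighter probe set lay above. Slc25a15, the ornithine carrier of the urea cycle, had 6 probe sets. Its brightest read 290.5 and 254.4 with AMH and 260.2 and 241.7 in control (0.11 ± 0.17), whereas the other 4 tested lay between -0.50 and -0.99 and 2 of them were called (-0.74, adjusted p = 0.0293, and -0.99, adjusted p = 0.0162), each lost without control replicate 1 (0.11 and 0.102) or control replicate 2 (0.236 and 0.101).

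Among carriers of iron, haem precursors and cofactors, none was called. Slc25a37 (mitoferrin 1), the iron importer of developing red cells, read 33.6 and 44.9 with AMH and 48.2 and 56.1 in control (-0.31 ± 0.25). The red cell gene Hbb fell by 3.88 on the same arrays, with 89.4 and 55.3 with AMH and 1362.0 and 1166.8 in control, and its part in the value of Slc25a37 was not tested. Slc25a28 (mitoferrin 2) read 315.6 and 320.7 with AMH and 221.5 and 248.6 in control (0.41 ± 0.16, adjusted p = 0.109). Slc25a38, which brings glycine in for haem synthesis, read 119.6 and 104.2 with AMH and 89.6 and 83.8 in control (0.31 ± 0.20), and Slc25a39, linked to glutathione import, gave -0.25 ± 0.16. Slc25a42, a coenzyme A carrier, gave -0.65 ± 0.22 (adjusted p = 0.0668).

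The ATP-magnesium/phosphate carriers, which are regulated by calcium and adjust the matrix pool of adenine nucleotides, did not move together. Slc25a24 read 514.5 and 657.0 with AMH and 378.8 and 402.3 in control (0.56 ± 0.17, adjusted p = 0.0518). Slc25a23 read 38.0 and 27.4 with AMH and 77.2 and 59.7 in control (-0.80 ± 0.25, adjusted p = 0.0556), and Slc25a25 gave 0.02 ± 0.31 with widely spaced arrays in both groups. Slc25a24 and Slc25a23 lay just outside the threshold. The pyrimidine nucleotide carrier Slc25a36 read 885.5 and 759.7 with AMH and 495.4 and 617.7 in control (0.55 ± 0.17, adjusted p = 0.0506), its second probe set gave 0.41 ± 0.19, and its relative Slc25a33 gave 0.26 ± 0.26. Slc25a30, a relative of the uncoupling proteins, had the highest change of the carriers (0.61 ± 0.22, adjusted p = 0.0812) with AMH arrays at 726.6 and 454.0, against 370.8 and 369.5 in control. Its second probe set gave 0.54 ± 0.30.

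Slc25a46, a carrier-like protein of the outer membrane that acts in mitochondrial fusion and fission, again had probe sets that disagreed. The brighter read 773.0 and 648.9 with AMH and 666.6 and 833.1 in control (-0.07 ± 0.17), and the other 85.3 and 95.1 with AMH and 159.2 and 171.8 in control (-0.77 ± 0.19, adjusted p = 0.0239, lost without control replicate 1 at 0.129 and control replicate 2 at 0.167). The peroxisomal carrier Slc25a17 gave 0.18 ± 0.15. The other 7 tested carriers (Slc25a14, Slc25a16, Slc25a27, Slc25a29, Slc25a45, Slc25a48 and Slc25a53) had changes between -0.47 and 0.56 and were not called. The second probe set of Slc25a48 gave -0.50 ± 0.24, also not called. Besides Slc25a31, the carriers too dim to test were Slc25a18, Slc25a21, Slc25a32, Slc25a34, Slc25a35 and Slc25a41. Slc25a41 read 5.3 and 10.2 with AMH and 40.8 and 27.3 in control.

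Probe sets of 1 gene did not always give 1 answer. Of the 16 genes with at least 2 tested probe sets, 11 had the same sign throughout and 9 the same call, and in 0 genes was one probe set called higher and another lower. Over all 82 tested probe sets of the 72 genes 6 were called higher and 17 lower. That is 7.32% and 20.7%, against 8.67% and 12.8% of all tested probe sets.

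**Figure D4:**
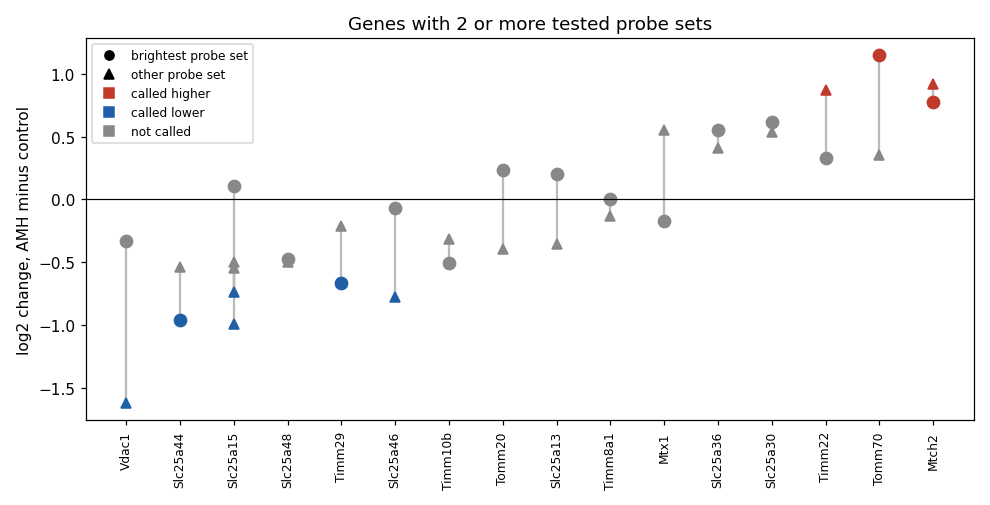
Log2 change (AMH minus control) of every tested probe set of the 16 genes with at least 2, the brightest as a circle and the others as triangles, coloured by call. The probe sets of Vdac1 lie 1.29 apart and those of Slc25a15 1.10, while those of Mtch2 are both called higher.

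Change varied with the length of the gene on the chromosome. Across the 63 genes the Spearman correlation between genomic span and log2 change was 0.398, and it was 0.456 over the 21 tested TIM and TOM genes, 0.161 over the 33 carriers and 0.126 over 10583 tested genes. The median span was 6842 bases for the TIM and TOM genes and 24063 for all tested genes. These are descriptions across genes on the same 4 arrays, and genes are not independent replicates. With a trend in span removed from each array, an alternative added after the data were seen, 7 of the 63 genes were called higher and 11 lower. Of all tested genes 13.8% were then called higher and 11.6% lower. The 3′/5′ ratios given above differed between the same arrays, and their part in this was not tested.

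Other genes of import and mitochondrial transport were read from lists of symbols. Of 14 tested genes of the presequence motor, precursor processing and matrix folding 0 rose and 4 fell (median -0.192), and the falls were 28.6% of the list, against 11.9% of all tested genes. Pmpcb, the catalytic subunit of the protease that removes presequences, fell to 177.1 and 149.8 with AMH, against 578.7 and 561.2 in control (-1.71 ± 0.17, adjusted p = 0.000701). The aminopeptidase gene Xpnpep3 fell by 1.14 on the log2 scale (± 0.22, adjusted p = 0.00973, 0.0609 without control replicate 1 and 0.061 without control replicate 2). The motor genes Pam16 (0.67 ± 0.24) and Dnajc15 (0.63 ± 0.23) were not called. Grpel1 and Pmpca, which complete the 4, were lower by -0.75 and -0.63, and lost the call without control replicate 1 (0.124 and 0.234) or control replicate 2 (0.097 and 0.239).

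Of 9 tested genes of intermembrane space import and membrane insertion 0 rose and 1 fell (11.1%, near the 11.9% of all tested genes), the inner membrane insertase gene Oxa1l (-0.76 ± 0.18, adjusted p = 0.0188, 0.149 without control replicate 1 and 0.0625 without control replicate 2). Aifm1 (-0.07), Cox17 (0.46) and Romo1 (0.43) were not called. Of 13 tested genes of inner membrane quality control and the MICOS complex, which shapes cristae, 1 rose and 1 fell (7.69% each, against 11.1% and 11.9% of all tested genes). Yme1l1, a protease that turns over import subunits, rose to 1085.5 and 1238.5 with AMH, against 611.5 and 802.8 in control (0.71 ± 0.17, adjusted p = 0.0236, 0.241 without control replicate 1). With hybridization control scaling its change was 0.24 with an adjusted p of 0.5, and with the other 9 control probe sets 0.09 with 0.798. Micos13 fell to 304.7 and 393.7 with AMH, against 868.6 and 809.2 in control (-1.24 ± 0.17, adjusted p = 0.00283). Opa1 (0.41 ± 0.24) and Dnajc11 (-0.42 ± 0.16) were not called.

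Of 20 tested genes for other mitochondrial transporters 5 rose and 3 fell, with a median of 0.121. That is 25% and 15%, against 11.1% and 11.9% of all tested genes. Of the rises, Tspo (0.54 ± 0.17, adjusted p just under 0.05) and Mpv17 (0.58 ± 0.16, adjusted p = 0.0386) lay near the threshold. Both lost the call with no filter on dim probe sets (0.0742 and 0.0564), while Letm1, Sfxn3 and Nnt kept it (0.0176, 0.0206 and 0.0266). Letm1, a cation exchanger, rose by 0.99 ± 0.19 (adjusted p = 0.00899, 0.0729 without control replicate 1) and the serine transporter relative Sfxn3 by 0.88 ± 0.18 (adjusted p = 0.0111, 0.073 without control replicate 2). With hybridization control scaling the change of Letm1 was 0.53 (0.094) and that of Sfxn3 0.42 (0.256). The uncoupling protein gene Ucp2, an SLC25 member under another symbol, fell to 160.9 and 151.3 with AMH, against 554.5 and 344.0 in control (-1.40 ± 0.23, adjusted p = 0.00548). Micu2, a regulator of the calcium uniporter, was lower by -0.65 ± 0.17 (adjusted p = 0.0265, 0.129 without control replicate 1 and 0.2 without control replicate 2). Of 13 tested genes of mitochondrial biogenesis 2 rose and 2 fell (15.4% each, against 11.1% and 11.9% of all tested genes). Ssbp1, which binds mitochondrial DNA, fell to 302.0 and 397.7 with AMH, against 1011.7 and 902.3 in control (-1.42 ± 0.18, adjusted p = 0.00181). The helicase gene Twnk fell by 0.98 on that scale (adjusted p = 0.0287, 0.233 without control replicate 2), while Polg2 (0.77 ± 0.22, adjusted p = 0.0427) and Gabpa (0.76 ± 0.22, adjusted p = 0.0447) rose. Polg2 and Gabpa lost the call without control replicate 1 (0.139 and 0.118) or control replicate 2 (0.19 and 0.169), and Polg2 also without AMH replicate 1 (0.11) and Gabpa without AMH replicate 2 (0.101). With hybridization control scaling Polg2 gave 0.35 (0.294) and Gabpa 0.30 (0.484). Of the called genes on these lists, 0 of 8 rises and 11 of 11 falls kept their call with that scaling. It moved the median change of all tested genes to -0.352 and called 0.885% of them higher and 24.4% lower. The count therefore does not weigh the falls against the rises. Of the 19 called genes on these lists 6 remained called without control replicate 1, 6 without control replicate 2, 18 with AMH replicate 1 left out and 16 with AMH replicate 2 left out.

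Of the 17 called carrier and import genes, 4 were called under all 15 alternatives: Tomm6, Timm10, Slc25a4 and Tomm7. Their adjusted p over those alternatives ran up to 0.00311 for Tomm6, 0.0162 for Timm10, 0.0145 for Slc25a4 and 0.0419 for Tomm7. No rise was among them, since Tomm70, Mtch2, Mtx2 and Timm50 were all lost with hybridization control scaling. That scaling called 0.885% of all tested genes higher and 24.4% lower, so hardly any rise could be kept. The absence of rises from the 4 therefore does not set falls apart from rises. Tomm70 was lost in 2 of the 15, both of them scalings to hybridization controls. Mtch2 was lost in 3, and Mtx2 and Timm50 in 4 each.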

How the data were processed

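Whole-ovary RNA from 2 AMH and 2 control samples was read on 1-colour Affymetrix arrays labelled with biotin by the standard procedures of the maker, per the labels' protocols. The deposited table holds 1 linear intensity per probe set and array. From the values, the authors scaled each array to 1 target, since the trimmed mean was 125.03 on all 4 arrays. Which program combined the probes into probe sets was not given in the sources.

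Groups were taken from the sample titles. Of 31099 probe sets, 57 controls were left out, 20832 had 1 gene symbol in GEO's platform annotation, 436 several and 9831 none listed. All 72 genes matched RefSeq by Entrez identifier under the same symbol. Intensities were converted to log2(intensity + 16), and probe sets in the lowest 40% by mean over the arrays (under an intensity of 27.8) were left out. The remaining 18625 were fitted with limma 3.58.1 (R 4.3.3; lmFit, eBayes with an intensity trend, 2 residual and 6.33 prior degrees of freedom), with Benjamini-Hochberg adjustment over all of them. Since 16 was added, changes of dim probe sets are understated. A limma fit of the same form was tested on simulated arrays with the same spread in both groups. The scalings, the fits with an array left out and the motif search were not part of that test.

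The gene set and all lists were chosen with earlier results of these data known. Any gene of the set could be named. Values per array were given for the called genes and a list of central members, and of each pathway list the 2 highest and 2 lowest by moderated statistic were named. Others, such as Slc25a24 or Slc25a46, were described in full after their values were seen. The fit was repeated under 15 alternatives, 2 of them added after seeing the data.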

Additional observations from a re-analysis of the deposited data

How the results depend on the processing

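Scaling moved the counts most. With hybridization control scaling 146 probe sets were called higher and 4935 lower, with 0 and 24 of the 63 carrier and import genes and a median over them of -0.549. With the other 9 probe sets of these controls, an alternative chosen after seeing the data, 112 were higher and 7030 lower, with 0 and 34 of the genes and a median of -0.696. The median change of all tested probe sets was 0.025 as deposited, 0.121 with median centring, -0.385 and -0.517 with these scalings. Without a filter on dim probe sets 1010 were called higher. With the span trend removed, also added after seeing the data, 7 of the genes were higher, with 13.8% of all tested genes. The cause of these shifts was not tested. Leaving out 1 array at a time gave 334 to 2245 probe sets higher and 1047 to 2886 lower, and 1 to 7 of the genes higher and 4 to 16 lower, the fewest without control replicate 1. Of the 17 calls 13 were lost under at least 1 alternative, and 27 of the 46 genes not called were called under at least 1. With the replicate number as a block 1350 probe sets were higher and 2216 lower, with 4 and 10 of the genes. The deviations of same-numbered arrays correlated at -0.00082, so the numbers share only a name. No named gene changed sign while called. The changes of Tspo and Mpv17 turned to -0.072 and -0.026, without a call, with the other 9 probe sets of the hybridization controls. The fit rests on 2 arrays a group, and where a group's signal is near the background only large changes can be seen.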
